A study of Mus musculus with 6 samples.

Results

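The genes described here encode the secreted and membrane-bound proteases that cut the extracellular matrix and their inhibitors: matrix metalloproteinases (Mmp), ADAMTS proteases (Adamts), the ADAMTS-like proteins (Adamtsl) and the tissue inhibitors of metalloproteinases (Timp). They were chosen by symbol alone, as every gene named Mmp, Timp, Adamts or Adamtsl with its family number, which gave 51 of the 46603 genes in the count files: 23 Mmp, 4 Timp, 19 Adamts and 5 Adamtsl. Counts were found for 48 of them, and 40 were abundant enough to be tested. Poly(A) RNA was sequenced in bulk from enteric glial cells (EGCs), which are glia of the gut. They had been grown out of neurospheres, floating clusters of progenitors, made from the intestines of embryonic day 14.5 mice of the strain C57BL/6J. The 3 control libraries came from cells labelled as not treated, and the 3 LPS libraries from cells given 100 ng/ml lipopolysaccharide, a component of the bacterial cell wall, for 12 h. Strain, tissue of origin and culture were shared by both groups, and no genetic change was named for either. The labels did not say whether replicates were separate cultures or embryos, so p-values measure the spread between these libraries, which may be technical.

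Matrix metalloproteinases are zinc proteases that are made as inactive precursors and are switched on when their prodomain is cut off. Collagenases cut fibrillar collagen, gelatinases digest denatured collagen and basement membrane, stromelysins have a broad range of substrates, and membrane-type members act at the cell surface. The TIMPs block the active site of metalloproteinases, and Timp3 also blocks several ADAM and ADAMTS proteases. ADAMTS proteases include the enzymes that cut the proteoglycans aggrecan and versican and those that trim procollagen, whereas ADAMTS-like proteins resemble their ancillary domains but have no protease domain. In the gut these proteins are known from matrix turnover during inflammation and repair.

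Total counts were between 18775316 and 23664312 per library, and the 51 genes took 0.847%, 0.814% and 0.721% of all counts in the control libraries and 1.35%, 1.42% and 0.768% in the LPS libraries. Values per library are always given in the order of the replicate numbers 1, 2 and 3. Levels are CPM, counts scaled to a library size of 1000000 after correction for composition, and 3 counts corresponded to between 0.124 and 0.167 CPM. Of 10 glial markers, 9 were above that level in every library, among them Sox10 at 101, 89.5 and 73.8 CPM in control and 76.8, 78.2 and 75.9 CPM in LPS. Gfap was at 3.26, 3.63 and 5.66 CPM in control and 2.77, 2.23 and 7.22 CPM in LPS. Of the 9 glial markers tested, Fabp7 rose (log2 fold change 1.29, adjusted p = 0.0122 in edgeR) and S100b and Cdh19 fell (log2 fold change -1.91 and -0.66, adjusted p = 0.0238 and 0.0457). The cultures also held transcripts of other cells: all 12 macrophage markers were above 3 counts in every control library, and together they reached 4119.5, 5345 and 12705 CPM in control and 4153, 5397 and 20409.6 CPM in LPS. Much of that sum was Lyz2, at 2888, 3490.1 and 7978 CPM in control and 2385, 3069 and 11479.8 CPM in LPS, and the markers did not move as one. Adgre1 rose (log2 fold change 2.78, adjusted p = 0.0452) and the other 11 were not called with the group alone, whereas with the replicate number as a block 4 were called higher, Cd14 and Adgre1 among them, and Mrc1, Cx3cr1 and Cd68 lower. The 8 mesenchymal markers, all above that level in every library, summed to 16005, 15603 and 16295 CPM in control and 15124, 15659 and 15842 CPM in LPS, and the 8 smooth muscle markers to 2599, 2599 and 2349 CPM in control and 982, 949.6 and 683 CPM in LPS, where 7 of them were called lower. The 8 neuronal markers summed to 486, 479 and 274 CPM in control and 439.6, 468 and 291 CPM in LPS, the 2 of interstitial cells to 152, 160.0 and 34.9 CPM and 46.2, 39.4 and 18 CPM, and the 4 of mesothelium to 66.9, 61.5 and 93.2 CPM and 31.6, 32.8 and 55.3 CPM. Kit of the interstitial list and Lrrn4 of the mesothelial list fell (adjusted p = 0.0473 and 0.0186). The part of these cells in the changes given below was not tested. Both libraries numbered 3 stood apart from the libraries numbered 1 and 2 of their group. Within each group they had the highest sums of macrophage, mesothelial, mesenchymal, neutrophil and epithelial markers. They had the lowest sums of neuronal, interstitial, smooth muscle and glial ones. The 10 glial markers summed to 612, 559 and 424 CPM in control and 466, 479 and 461 CPM in LPS, where the libraries were close. The chi-square between 2 libraries, divided by the number of genes, was 6.72 between control replicates 1 and 2 and 7.07 between LPS replicates 1 and 2, against 62.5 to 135.0 for pairs of a group that included replicate 3. In bulk RNA, fewer cells of a type and less RNA per cell cannot be told apart.

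The stromelysin Mmp3, the gelatinase Mmp9 and the collagenase Mmp13 had 95-, 67.4- and 50.1-fold higher mean levels in LPS than in control, and the inhibitor Timp1 a 9.89-fold higher one. The log2 fold change of Timp1 went from 3.31 to 3.91 without control replicate 3. The inhibitors Timp3 and Timp2 were 3.88- and 1.5-fold lower. Of the 40 genes tested, 9 were called higher in LPS (22.5%, against 9.09% of all 15226 genes tested) and 7 were called lower (17.5%, against 6.71% of all genes), at an adjusted p-value under 0.05 in the edgeR quasi-likelihood test. The genes that rose were Mmp3, Mmp9, Mmp13, Mmp1b, Timp1, Mmp10, Adamts7, Adamts4 and Adamts6. The genes that fell were Timp3, Adamtsl3, Adamtsl1, Mmp17, Adamts12, Mmp28 and Timp2. The median log2 fold change was -0.28 over the 40 genes and -0.02 over all genes tested; scaling by upper-quartile factors moved the latter to -0.12 and by library size alone to -0.18. All LPS libraries lay above all control libraries for 10 of the 40 genes (19.3% of all genes did so) and below them for 11 (19.4% of all genes).

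Same-numbered control and LPS libraries deviated together from their group means, although numbers 1 and 2 were not told apart from each other, and a fit with the replicate number as a block called 11 of the 40 genes higher (15.4% of all genes) and 15 lower (14.9% of all genes). The added genes were Adamts9 and Adamts14 on the higher side and Mmp11, Adamts15, Adamts5, Adamts1, Adamts2, Adamts17, Mmp27 and Adamtsl4 on the lower side. With the libraries numbered 1 and 2 only, an alternative chosen after the data were seen, 13 of 41 genes were called higher (22.6% of all genes) and 19 lower (20.4% of all genes), and these included the 9 and the 7 called with 6 libraries. Leaving out 1 library left 5 genes called higher without control replicate 1 (3.03% of all genes), 4 without control replicate 2 (2.44%), 8 without control replicate 3 (7.52%), 6 without LPS replicate 1 (3.98%) or 2 (3.36%), and 12 without LPS replicate 3 (12.6%). For genes called lower, the count was 1 without control replicate 1 (1.25% of all genes), control replicate 2 (0.72%), LPS replicate 1 (1.44%) or LPS replicate 2 (1.04%), 8 without control replicate 3 (6.66%) and 9 without LPS replicate 3 (9.13%). The number of calls over all genes thus fell and rose in the same fits. Mmp9, Mmp13, Timp1, Adamts7 and Timp3 were called in each of these 6 fits.

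**Figure D1:**
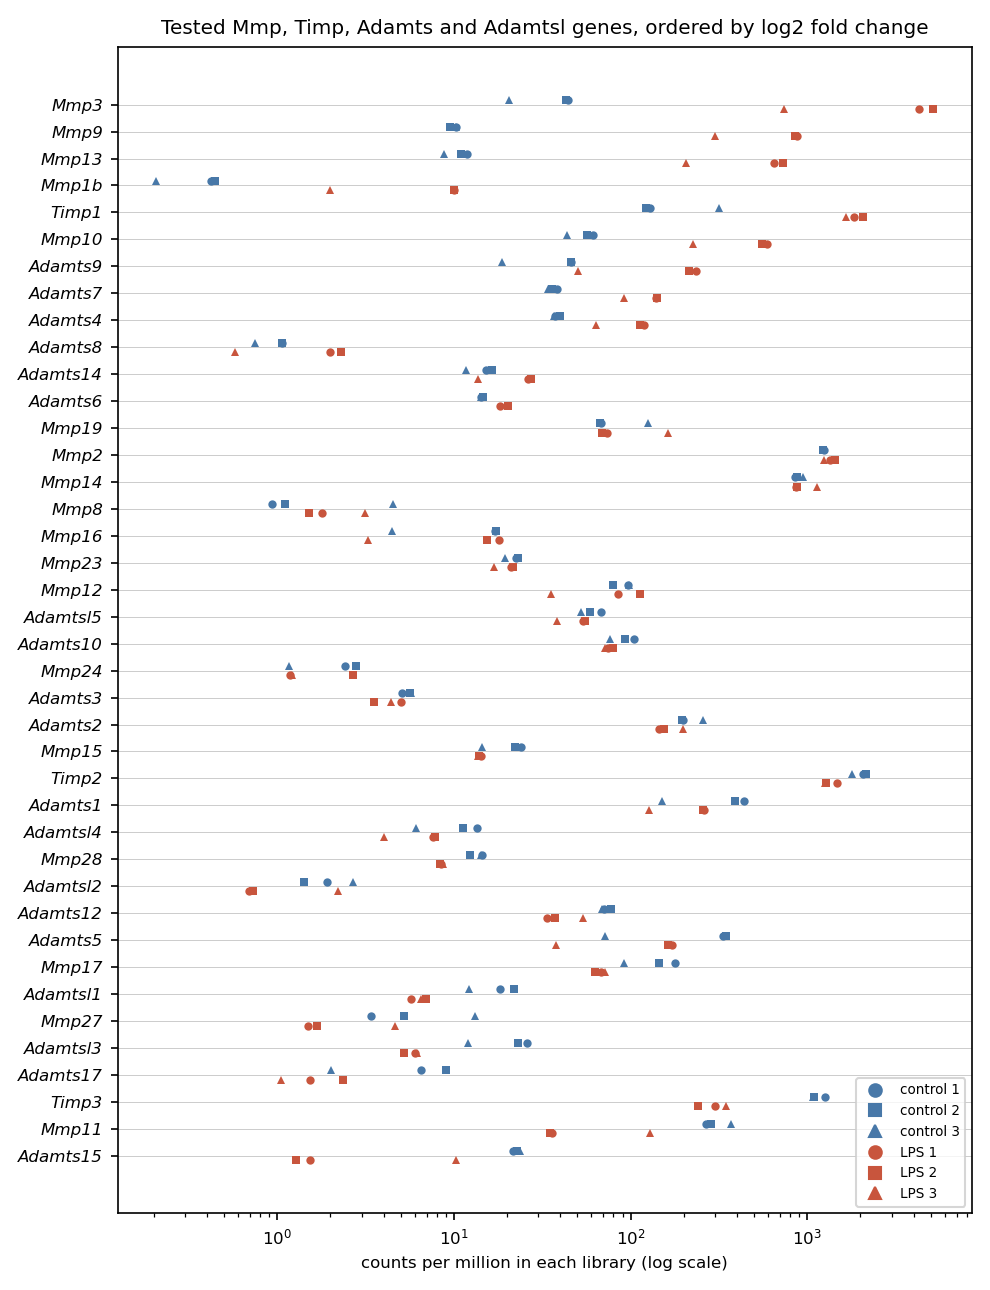
CPM of the 40 tested genes in each library on a log axis, control in blue and LPS in red, with circles, squares and triangles for replicates 1, 2 and 3 and genes ordered from the most positive to the most negative log2 fold change. From Mmp3 to Adamts9 at the top the red symbols lie to the right of all blue ones, and for Timp3, Mmp11 and Adamts15 at the bottom they lie to the left.

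**Figure D2:**
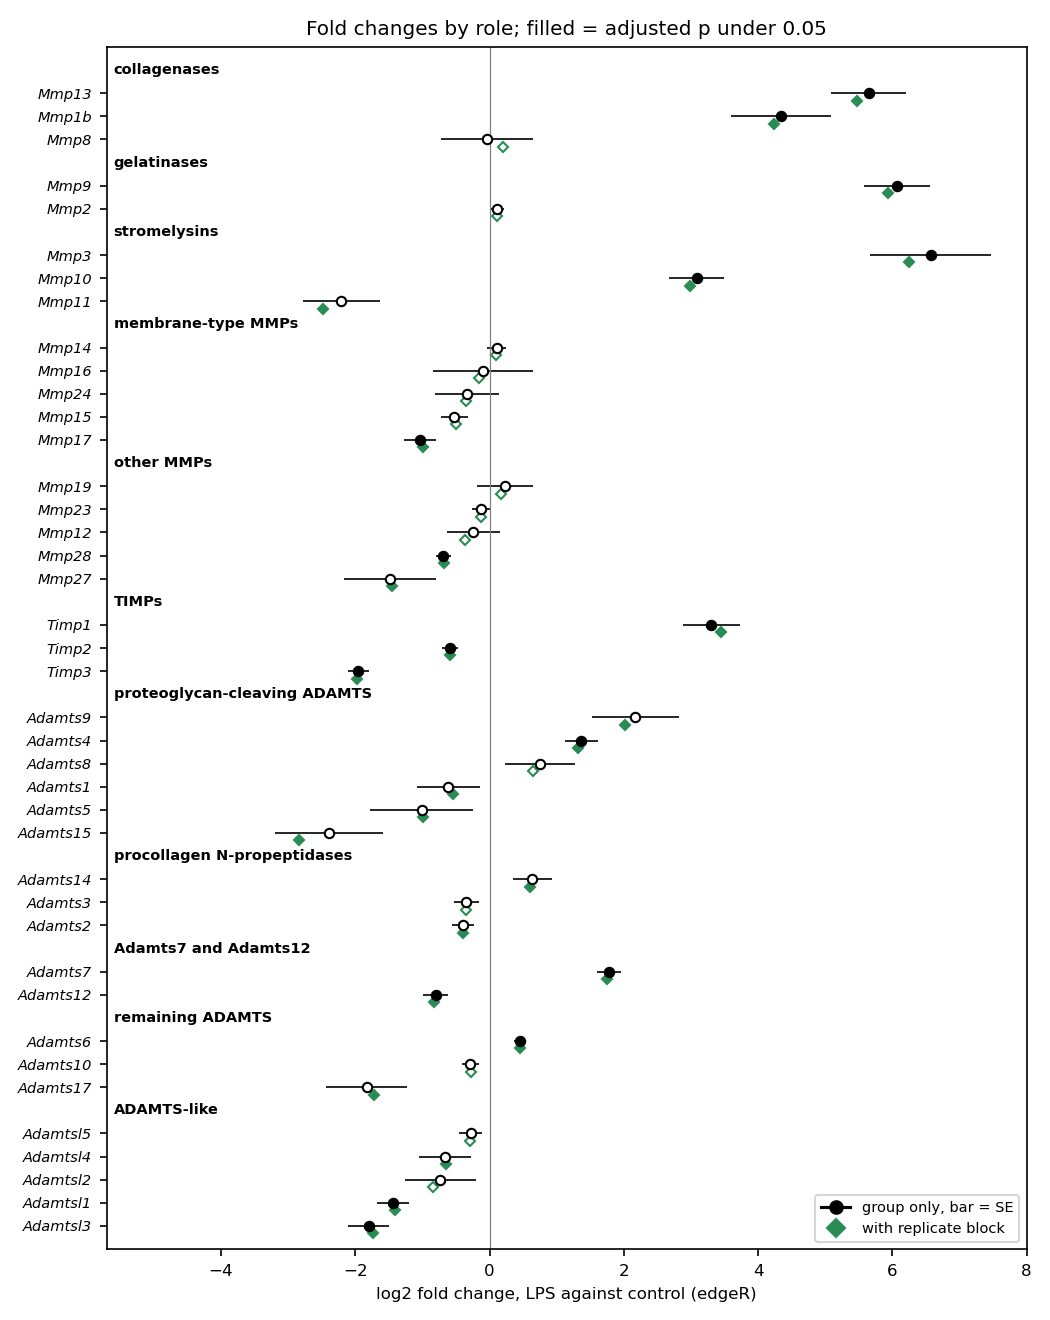
Log2 fold change of LPS against control for the 40 tested genes, grouped by role. Black circles with SE bars come from the fit with the group alone and green diamonds from the fit with the replicate block, filled where the adjusted p-value was under 0.05. The largest positive values are those of Mmp3, Mmp9 and Mmp13, and Adamts15 has the most negative one.

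Of the genes that rose, 4 lay side by side with other Mmp genes in a cluster on chromosome 9 (GRCm38, as for all gene coordinates given here, positions 7272514 to 7699585). In the GENCODE M21 annotation no other protein-coding gene lies between its 10 Mmp genes, which follow each other as Mmp13, Mmp12, Mmp1b, Mmp3, Mmp1a, Mmp10, Mmp8, Mmp27, Mmp20 and Mmp7. Of these, 7 were tested, 4 rose (Mmp13, Mmp1b, Mmp3 and Mmp10), and Mmp12, Mmp8 and Mmp27 were not called in either direction, against 9.09% of all genes higher and 6.71% lower. With the replicate block Mmp27 was called lower. Outside the cluster, 11 of 13 Mmp genes were tested, of which Mmp9 rose and Mmp17 and Mmp28 fell. The median log2 fold change was 3.08 over the 7 tested genes of the cluster and -0.13 over the 11 outside it.

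The promoters of the 4 cluster genes that rose are shown because they share a short motif close to the start site. They run from 250 bases before to 50 bases after the start, 5′ to 3′ on the strand of the gene, from RefSeq on GRCm38.p6, and capitals mark the AP-1 motif TGANTCA, the binding sequence of FOS and JUN dimers, which reads the same on both strands.
Mmp13: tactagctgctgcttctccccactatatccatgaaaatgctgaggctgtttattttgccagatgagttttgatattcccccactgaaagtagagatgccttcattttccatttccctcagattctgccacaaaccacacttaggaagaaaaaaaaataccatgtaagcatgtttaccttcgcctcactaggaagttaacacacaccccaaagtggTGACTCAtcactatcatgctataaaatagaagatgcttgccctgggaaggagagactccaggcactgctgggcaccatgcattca
Mmp1b: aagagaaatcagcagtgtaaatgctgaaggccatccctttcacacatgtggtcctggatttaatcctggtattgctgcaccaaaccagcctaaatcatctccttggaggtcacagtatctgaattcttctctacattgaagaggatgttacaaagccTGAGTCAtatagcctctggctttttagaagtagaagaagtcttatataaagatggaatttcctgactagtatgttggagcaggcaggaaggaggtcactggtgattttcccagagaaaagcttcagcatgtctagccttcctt
Mmp3: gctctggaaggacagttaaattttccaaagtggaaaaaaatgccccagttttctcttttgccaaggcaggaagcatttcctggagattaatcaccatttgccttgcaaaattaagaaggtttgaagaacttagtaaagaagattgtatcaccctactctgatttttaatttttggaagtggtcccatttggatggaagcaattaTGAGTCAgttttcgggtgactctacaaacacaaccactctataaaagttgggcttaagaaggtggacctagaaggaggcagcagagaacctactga
Mmp10: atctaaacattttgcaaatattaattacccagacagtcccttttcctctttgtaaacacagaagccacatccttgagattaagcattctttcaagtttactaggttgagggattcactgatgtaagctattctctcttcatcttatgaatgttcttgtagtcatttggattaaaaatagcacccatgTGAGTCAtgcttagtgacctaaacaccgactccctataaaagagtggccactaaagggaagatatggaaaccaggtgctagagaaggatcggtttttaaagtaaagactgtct
The Mmp13 window is chr9:7272264-7272563 on the plus strand, the Mmp1b window chr9:7387977-7388276 on the minus strand, the Mmp3 window chr9:7445572-7445871 on the plus strand and the Mmp10 window chr9:7502092-7502391 on the plus strand. The motif began 35 bases before the start in Mmp13, 93 in Mmp1b, 46 in Mmp3 and 63 in Mmp10. These letters occurred in 2565 of all 32851 promoters of the same length (7.81%). Among 39 promoters that matched 36 of the 51 genes, 8 held the motif, all of them in the chromosome 9 cluster. Besides the 4 above, they belonged to Mmp1a, Mmp20 and Mmp7, which were not tested, and to the second of the Mmp12 start sites, a gene that was tested and not called. The promoters of Mmp8 and Mmp27 and of Timp1 did not hold it, nor did any of the 5 promoters found for genes that fell. A consensus for NF-kB, searched on both strands, occurred in 8.46% of all promoters and in 6 of the 39 promoters (15.4%). These belonged to Adamts9, Adamtsl2 and the first of the Mmp12 start sites, genes not called with the group alone. The others belonged to Mmp25, Adamts13 and Adamts20, which were not tested. The 5 promoters found for genes that rose did not hold it. The interferon motif GAAANNGAAA, searched on both strands, occurred in 3.44% of all promoters and in that of Mmp13 alone among the 39. A match is a description of the letters in this window. No promoter was matched for 15 genes, among them Mmp9, Adamts4, Adamts6 and Adamts7.

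Mmp3 encodes stromelysin-1, which cuts proteoglycans, laminin and fibronectin and activates the precursors of other metalloproteinases. It was at 44.2, 42.9 and 20.5 CPM in the control libraries and at 4312, 5162 and 736 CPM in the LPS libraries. LPS replicates 1 and 2 were high and LPS replicate 3 was lower, yet still above every control library. The log2 fold change was 6.57 (SE 0.90, adjusted p = 0.00909), the largest among the genes described here. Without control replicate 1 or 2 the adjusted p was 0.0526 and 0.0613. Mmp10, stromelysin-2, lies in the same cluster and has similar substrates. It went from 61.2, 56.6 and 43.6 CPM to 594, 552 and 224 CPM (log2 fold change 3.08, SE 0.40, adjusted p = 0.00817; 0.0561 without control replicate 2). The groups did not overlap for either gene. Of the 31-base words in the exons of Mmp3, 11.4% also occur in Mmp10, so a part of the reads of each may not be assignable. Mmp11, stromelysin-3, is activated inside the cell by furin-type proteases and does not cut the usual stromelysin substrates. It lay at 266, 287 and 368 CPM in control and 35.8, 34.9 and 129 CPM in LPS. Every LPS library was below every control library, with LPS replicate 3 in between, and the log2 fold change of -2.21 (SE 0.57) had an adjusted p of 0.0514 with the group alone, 0.0118 with the replicate block and 0.000636 without LPS replicate 3. Without that library its log2 fold change was -3.12. It was also called lower by DESeq2 and limma-voom, without the filter on low counts and with upper-quartile or library-size scaling.

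Mmp13 (collagenase-3), a main collagenase of mouse tissue, rose from 11.9, 10.9 and 8.8 CPM to 645, 729 and 207 CPM. Its log2 fold change was 5.65 (SE 0.56, adjusted p = 0.0031), and it was called in each fit that left out a library. Mmp1b, one of 2 mouse relatives of human interstitial collagenase, was found at 0.424, 0.443 and 0.207 CPM in control, which corresponds to 10, 10 and 5 counts, and at 9.98, 10.0 and 1.99 CPM in LPS. The groups did not overlap, and the log2 fold change was 4.34 (SE 0.75, adjusted p = 0.0174). The call of Mmp1b was lost without control 1 (0.0777), control 2 (0.0876), LPS 1 (0.059) or LPS 2 (0.0663), each value being the adjusted p without that replicate. Mmp1b is uncertain as a separate signal, because 157 of its exon bases overlap Mmp12 on the opposite strand and 20.7% of its 31-base words occur in Mmp1a. Mmp1a itself, a polymorphic pseudogene in the annotation, had 1, 1 and 0 counts in control and 13, 8 and 2 counts in LPS and was not tested. Mmp8, known as neutrophil collagenase, stood at 0.932, 1.11 and 4.55 CPM in control and 1.78, 1.5 and 3.14 CPM in LPS. The highest values were those of the libraries numbered 3 in both groups, the groups overlapped, and the log2 fold change was -0.038 (SE 0.69, adjusted p = 0.977), with a sign that changed between settings. Of 10 neutrophil markers, Ngp was at 0 in every library and S100a9, Cxcr2 and Elane had at most 1 count in any library, while 3 were abundant enough to be tested. S100a8 rose from 0.127, 0.133 and 0.827 to 14.9, 13.5 and 4.03 CPM (adjusted p = 0.0205). Csf3r was at 2.88, 3.32 and 13.2 CPM in control and 16.4, 23.7 and 71.4 CPM in LPS, and Camp at 1.57, 1.55 and 0.289 CPM and 7.21, 7.8 and 3.51 CPM. Both had every LPS library above every control library, with adjusted p-values of 0.0986 and 0.0553 with the group alone and 0.000719 and 0.00803 with the block. The part of such cells in the values of Mmp8 was not tested.

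**Figure D3:**
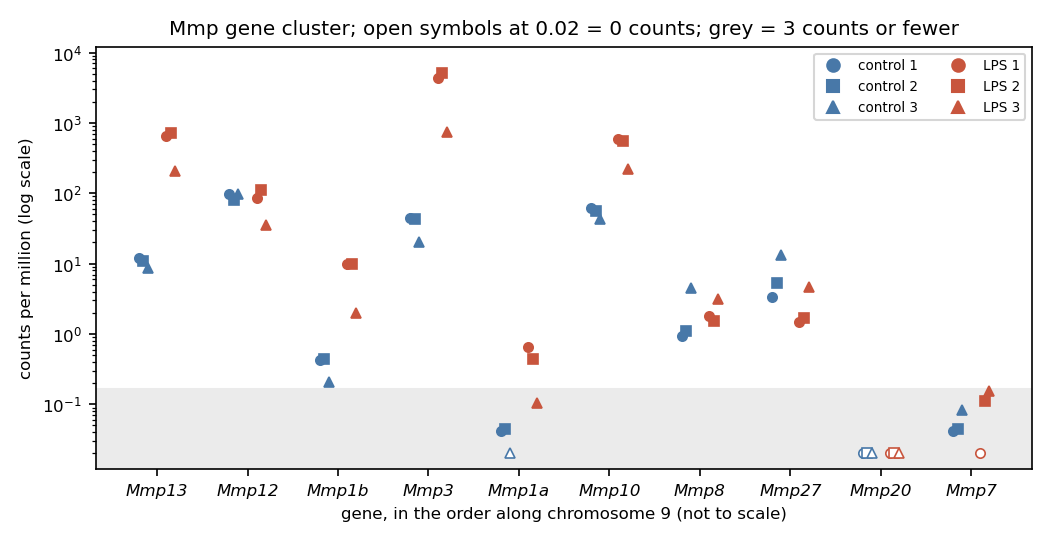
CPM on a log axis for the 10 Mmp genes of the chromosome 9 cluster, in their order along the chromosome, with control in blue, LPS in red and a symbol for each replicate number. Mmp13, Mmp1b, Mmp3 and Mmp10 show all red symbols above all blue ones, between them Mmp12 overlaps, and Mmp20 had no count in any library.

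Of the gelatinases, Mmp9 rose and Mmp2 did not pass the test. Mmp9 (gelatinase B, chr2:164940780-164955850) was at 10.2, 9.52 and 10.3 CPM in control, with little spread, and at 875, 851 and 301 CPM in LPS. Its log2 fold change was 6.07 (SE 0.49, adjusted p = 0.00176), and its adjusted p stayed at or below 0.0208 when any library was left out. Mmp2 (gelatinase A), which is typically constitutive in stromal cells, was at 1241, 1235 and 1224 CPM in control and 1351, 1427 and 1238 CPM in LPS. The groups overlapped, and the log2 fold change of 0.12 (SE 0.092) had an adjusted p of 0.428.

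Of the membrane-type metalloproteinases, 5 of 6 were tested and 1 was called lower. Of all genes tested, 6.71% were called lower and 9.09% higher. Mmp14, which activates the Mmp2 precursor at the cell surface together with Timp2, was abundant in both groups, at 852, 869.8 and 944 CPM in control and 859, 870.2 and 1141 CPM in LPS. Its log2 fold change was 0.11 (SE 0.14, adjusted p = 0.648), and the highest library was LPS replicate 3. Mmp17 (chr5:129584169-129611099), which is held in the membrane by a lipid anchor, fell from 178, 145 and 91.5 CPM to 67.6, 63.1 and 71.6 CPM (log2 fold change -1.04, SE 0.24, adjusted p = 0.0395). The groups did not overlap, but control replicate 3 was well below the other controls. The call of Mmp17 was lost without control 1 (0.105), control 2 (0.14), LPS 1 (0.119), LPS 2 (0.141) or LPS 3 (0.0548). Mmp15, Mmp16 and Mmp24 had log2 fold changes between -0.53 and -0.091 and did not pass the test. Leaving out control replicate 3 gave Mmp15 an adjusted p of 0.0146. Mmp16 was low in both libraries numbered 3, at 17, 17.4 and 4.46 CPM in control and 17.9, 15.3 and 3.25 CPM in LPS. Of the exon bases of Mmp24, 637 overlap the gene BC029722 on the opposite strand, which had more counts than Mmp24 in every library.

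Among the remaining metalloproteinases, Mmp28 (epilysin, chr11:83440768-83463071) fell from 14.4, 12.3 and 14.2 CPM to 8.4, 8.3 and 8.69 CPM. The groups did not overlap and each was tight (log2 fold change -0.69, SE 0.11, adjusted p = 0.0158). Leaving out control 1, control 2, LPS 1 or LPS 2 in turn, the adjusted p of Mmp28 was 0.0789, 0.0569, 0.066 and 0.0751. Mmp12, macrophage elastase, was at 97, 79.5 and 98.2 CPM in control and 84.8, 113 and 35.3 CPM in LPS. LPS replicate 3 had the least Mmp12, and control replicate 3 the most of the controls, close to control replicate 1. Both libraries numbered 3 had the highest sum of macrophage markers in their group. The part of macrophages in the values of Mmp12 was not tested. The log2 fold change was -0.24 (SE 0.40, adjusted p = 0.728). Mmp27 lay at 3.39, 5.22 and 13.2 CPM in control and 1.48, 1.67 and 4.66 CPM in LPS, highest in the libraries numbered 3 of each group. The values overlapped between groups but were lower in LPS within each number, and the log2 fold change of -1.48 (SE 0.68) had an adjusted p of 0.197 with the group alone and 0.00737 with the replicate block. It was -0.71 without control replicate 3 and -2.21 without LPS replicate 3. Mmp19, of whose exon bases 789 overlap Tmem198b on the opposite strand, and Mmp23 were not called, with log2 fold changes of 0.23 and -0.13.

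Of the inhibitors, Timp1 rose and Timp2 and Timp3 fell. Timp1 (chrX:20870166-20874735), a secreted inhibitor that binds the Mmp9 precursor, rose from 129, 122 and 315 CPM in control to 1849, 2077 and 1666 CPM in LPS. Control replicate 3 was above the other controls, LPS replicate 3 below the other LPS libraries, and the groups were far apart. The log2 fold change was 3.31 (SE 0.43, adjusted p = 0.00785), and 3.91 without control replicate 3. The gene overlaps Syn1 on the opposite strand without shared exon bases. Timp3 (chr10:86300372-86349506), the inhibitor that is bound to the matrix and also acts on Adam17 and on aggrecanases, fell from 1262, 1087 and 1083 CPM to 299, 241 and 345 CPM. Its log2 fold change was -1.96 (SE 0.16, adjusted p = 0.00176), and it remained called in every fit that left out a library. Of the exon bases of Timp3, 1733 overlap Syn3 on the opposite strand, which had at most 94 counts in a library. Timp2 (chr11:118301069-118355740), which inhibits Mmp2 and also helps to activate it, fell from 2066, 2159 and 1793 CPM to 1473, 1283 and 1262 CPM. The groups did not overlap, and the log2 fold change was -0.58 (SE 0.12, adjusted p = 0.0289). The call of Timp2 was lost without control 1 (0.116), control 2 (0.134), LPS 1 (0.0652) or LPS 2 (0.122). Timp4 had 1, 2 and 3 counts in control and 2, 1 and 0 counts in LPS and was not tested.

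The 4 Timp genes summed to 3457, 3368 and 3192 CPM in control and 3620.1, 3601 and 3273 CPM in LPS, and the groups overlapped. Of the Timp counts, Timp1 took 3.73, 3.61 and 9.87% in control and 51.1, 57.7 and 50.9% in LPS. The share of Timp3 was 34.2% ± 2.14 (SD, n = 3) in control and 8.5% ± 1.93 (SD, n = 3) in LPS. That of Timp2 went from 60.0% ± 3.97 to 38.3% ± 2.54 (SD, n = 3 each). No library overlapped between groups for any of these 3 shares. The 23 Mmp genes summed to 2915, 2888 and 3006 CPM in control and 8976, 9948 and 4302 CPM in LPS, which made the ratio of Mmp to Timp counts 0.843, 0.858 and 0.942 in control and 2.48, 2.76 and 1.31 in LPS. No library of one group reached the range of the other. Mmp3, Mmp9, Mmp10 and Mmp13 together accounted for 128, 119.9 and 83.2 CPM in control and 6427, 7294 and 1468 CPM in LPS, whereas the sum of Mmp2 and Mmp14 was 2093, 2104 and 2168 and 2210.4, 2298 and 2379 CPM. Longer genes weigh more in such sums, which are given with no test and say nothing of protein or activity.

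**Figure D4:**
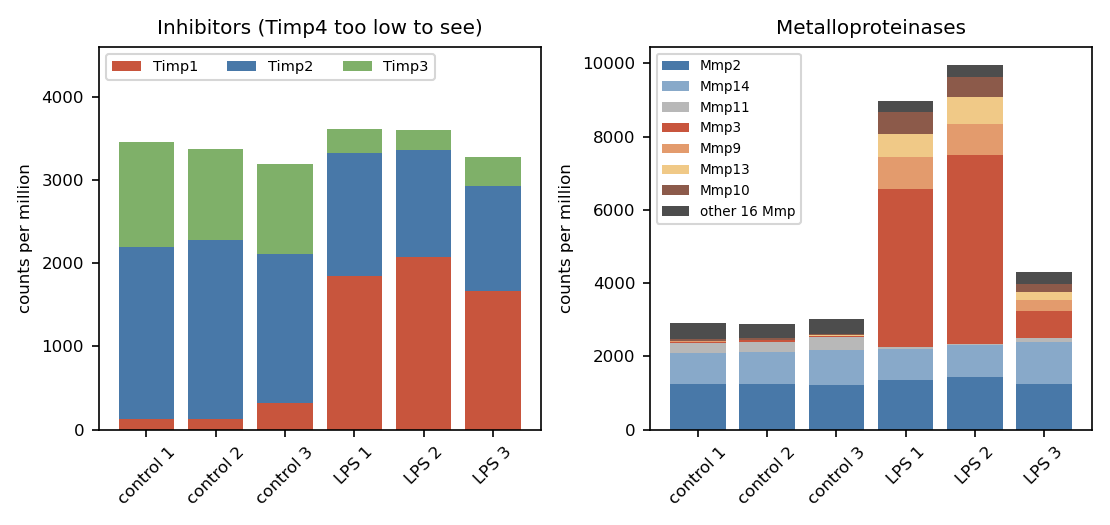
Stacked CPM of Timp1, Timp2 and Timp3 (left) and of the Mmp genes (right) in each of the 6 libraries. The inhibitor columns are of similar height with a larger Timp1 part in LPS, and the Mmp columns are taller in LPS, mostly through Mmp3, with LPS replicate 3 at 4302 CPM below the other LPS libraries.

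Of the 7 proteoglycan-cleaving ADAMTS genes, 6 were tested and Adamts4 was called. Over all genes tested, the rate of calls was 9.09% for a rise and 6.71% for a fall. In the fit that used the replicate block, these rates were 15.4% and 14.9%. Adamts4 (aggrecanase-1, chr1:171250421-171260637) rose from 37.3, 40.1 and 37 CPM to 119.8, 112 and 63.3 CPM. The controls were tight and LPS replicate 3 was the lowest of the LPS libraries (log2 fold change 1.37, SE 0.24, adjusted p = 0.0194). Leaving out control 1, control 2, LPS 1 or LPS 2 in turn, the adjusted p of Adamts4 was 0.0851, 0.0902, 0.0635 and 0.0787. Adamts5 (aggrecanase-2) had the opposite sign, at 333, 346 and 71.7 CPM in control and 172, 164 and 37.8 CPM in LPS. Both libraries numbered 3 were far below the others, and the groups overlapped. The log2 fold change of -1.01 (SE 0.77) had an adjusted p of 0.419 with the group alone and 0.00173 with the replicate block. Within numbers 1, 2 and 3 the ratio of LPS to control was 0.516, 0.473 and 0.528. Adamts1, a versican-cleaving protease whose gene is the neighbour of Adamts5 on chromosome 16, was at 441, 392 and 150.3 CPM in control and 259.6, 256 and 127 CPM in LPS. It was also low in both libraries numbered 3 (log2 fold change -0.61, SE 0.47), with an adjusted p of 0.419 with the group alone and 0.0311 with the block.

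Adamts9, which cuts versican and aggrecan, was at 46.2, 45.7 and 18.8 CPM in control and 234, 215 and 50.2 CPM in LPS. Every LPS library was above every control library, but LPS replicate 3 only just, and the log2 fold change of 2.17 (SE 0.65) had an adjusted p of 0.0771 with the group alone, 0.0055 with the replicate block and 0.0118 without LPS replicate 3. Adamts15, a relative of the aggrecanases, was at 21.7, 22.8 and 23.7 CPM in control and 1.53, 1.28 and 10.2 CPM in LPS. The controls agreed closely and LPS replicate 3 was several-fold above the other LPS libraries. Its log2 fold change of -2.39 (SE 0.81), the most negative of the 40, became -4.01 without LPS replicate 3. It had an adjusted p of 0.102 with the group alone, 0.0372 with the block and 0.000179 without LPS replicate 3. Adamts8, which lies next to Adamts15 on chromosome 9 with no gene that codes for protein in between, stayed at or below 2.28 CPM and was not called (log2 fold change 0.75, adjusted p = 0.373, and 0.0404 without LPS replicate 3).

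The 3 proteases that remove the amino-terminal propeptide of fibrillar procollagen were not called with the group alone. Adamts2 was at 199, 196 and 257 CPM in control and 145, 155 and 197 CPM in LPS, lower in LPS within each number, with an adjusted p of 0.163 (log2 fold change -0.39, SE 0.16) and of 0.0122 with the block. Adamts14 had the opposite sign, at 15.2, 16.3 and 11.7 CPM in control and 26.2, 27.3 and 13.8 CPM in LPS, and the groups overlapped through LPS replicate 3. Its log2 fold change of 0.64 (SE 0.29) had an adjusted p of 0.192, 0.0372 with the block and 0.0193 without LPS replicate 3. Adamts3 remained between 3.51 and 5.74 CPM and was not called with either fit.

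Adamts7 and Adamts12, the pair known for cutting cartilage oligomeric matrix protein, changed in opposite directions. Adamts7 (chr9:90163069-90208071) rose from 38.3, 35.9 and 33.9 CPM to 139, 141 and 91.7 CPM (log2 fold change 1.78, SE 0.18, adjusted p = 0.00351) and was called whichever library was left out. It shares 122 exon bases with Tbc1d2b on the opposite strand, which had more counts. Adamts12 (chr15:11064790-11349231) fell from 70.9, 77 and 69.2 CPM to 33.5, 37.3 and 53.9 CPM (log2 fold change -0.80, SE 0.19, adjusted p = 0.0401). Neither gene overlapped between groups, and for both LPS replicate 3 was the LPS library nearest to control. The call of Adamts12 was lost without control 1 (0.119), control 2 (0.146), control 3 (0.0716), LPS 1 (0.103) or LPS 2 (0.143).

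Among the remaining ADAMTS genes, Adamts6 (chr13:104287835-104496695), which is linked to fibrillin microfibrils, rose by a small amount, from 14.2, 14.6 and 14.1 CPM to 18.2, 20.2 and 20.1 CPM. The values were tight in both groups and did not overlap (log2 fold change 0.45, SE 0.091, adjusted p = 0.0273). Its call was lost without control 1 (0.104), control 2 (0.115), control 3 (0.0503), LPS 1 (0.0647) or LPS 2 (0.112). Adamts10, its close relative, did not pass the test at a log2 fold change of -0.28 (adjusted p = 0.182). Adamts17 was at 6.48, 9.03 and 2.03 CPM in control and 1.53, 2.34 and 1.05 CPM in LPS. The groups overlapped through control replicate 3, and the log2 fold change of -1.83 (SE 0.60) had an adjusted p of 0.0961 with the group alone, 0.0164 with the block and 0.0254 without control replicate 3.

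All 5 ADAMTS-like genes, whose products sit in the matrix and several of which bind fibrillin, had negative log2 fold changes, and 2 were called. Of all genes tested, 6.71% were called lower, and 14.9% with the replicate block. All 5 were lower in LPS within each of the 3 numbers, as were 34.6% of all genes tested. Adamtsl3 (chr7:82335694-82614450) fell from 25.8, 23 and 11.9 CPM to 6.03, 5.24 and 6.18 CPM (log2 fold change -1.80, SE 0.30, adjusted p = 0.0169). Adamtsl1 (chr4:85514172-86428385) fell from 18.3, 21.8 and 12.1 CPM to 5.73, 6.97 and 6.54 CPM (log2 fold change -1.44, SE 0.24, adjusted p = 0.0159). In both, the 3 LPS libraries were close to each other and control replicate 3 was the lowest control. Leaving out control 1, control 2, LPS 1 or LPS 2 in turn, the adjusted p was 0.0637, 0.08, 0.0657 and 0.0794 for Adamtsl3. For Adamtsl1 it was 0.0689, 0.0664, 0.066 and 0.0656 in the same order. Adamtsl4 was at 13.4, 11.2 and 6.08 CPM in control and 7.61, 7.8 and 4.03 CPM in LPS. It was lower in LPS within each number, with an adjusted p of 0.292 and of 0.0246 with the block (log2 fold change -0.66, SE 0.38). Adamtsl2 and Adamtsl5 had adjusted p-values of 0.399 and 0.321, and that of Adamtsl2 was 0.0469 without LPS replicate 3, where its log2 fold change went from -0.73 to -1.50.

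Of the 51 genes, 11 did not enter the test. Mmp20, the enamel protease, Mmp21 and Adamts18 had no count in any library. The other 8 were Mmp1a, Mmp7, Mmp25, Timp4, Adamts13, Adamts16, Adamts19 and Adamts20, with at most 23 counts in a library. Adamts13, the plasma protease of von Willebrand factor, had 2, 0 and 0 counts in control and 8, 9 and 2 in LPS, and Mmp25, a leukocyte protease, had 9, 6 and 2 counts in control and 20, 6 and 23 in LPS. Adamts19 had 22, 18 and 5 counts in control against 0, 4 and 6 in LPS. When the filter on low counts was removed, all 48 genes with a count were tested in edgeR, and the genes called were 8 of the 9 that rose, the 7 that fell and Mmp11.

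Levels of different genes were compared per kilobase of annotated exon. In control the order was Timp2 (515 CPM per kb), Mmp2 (366), Timp1 (212), Mmp14 (149) and Timp3 (140.5), followed by Mmp11 (110.5). In LPS it was Timp1 (2099 CPM per kb), Mmp3 (1889.7), Mmp2 (397), Timp2 (344) and Mmp10 (265), with Mmp13 (197) and Mmp9 (191) next. Mmp3 moved from rank 13 to rank 2, Mmp13 from 21 to 6, Mmp9 from 25 to 7 and Mmp1b from 39 to 23, while Timp3 moved from 5 to 10 and Mmp11 from 6 to 12. These are ranks of group means. In LPS replicates 1, 2 and 3 Mmp3 was at 2394, 2866 and 408 CPM per kb and Timp1 at 2082, 2339 and 1876 CPM per kb, so Mmp3 led in replicates 1 and 2 and Timp1 in replicate 3. The places behind them also changed between libraries: Mmp9 was above Mmp13 in LPS replicates 1 and 3, and in LPS replicate 3 Mmp14 (191 CPM per kb) was above Mmp10 (130.2), Mmp9 (85.2) and Mmp13 (77.5). In control, Timp1, Mmp14 and Timp3 lay between 133 and 158 CPM per kb apart from Timp1 in replicate 3 (355), and their order was within that spread. By mean CPM without length, Timp2, Mmp2, Timp3, Mmp14 and Adamts1 led in control and Mmp3, Timp1, Timp2, Mmp2 and Mmp14 in LPS. Single libraries departed from this order: Mmp3 was below the other 4 in LPS replicate 3, Timp2 was below Mmp2 in LPS replicate 2, and Timp3 was above Mmp2 in control replicate 1. Mmp14 was below Mmp9 in LPS replicate 1, and Adamts1 was below Mmp11, Timp1 and Adamts2 in control replicate 3.

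The libraries numbered 3 gave smaller responses for most of the genes called. Between the control and LPS libraries numbered 3, the log2 ratio was 5.17 for Mmp3, 4.87 for Mmp9 and 2.40 for Timp1, against means of 6.76, 6.45 and 3.97 in numbers 1 and 2. Of the 9 genes called higher, 8 had a smaller ratio in number 3, Adamts6 being the exception. Of the 7 called lower, 6 had a smaller fall in number 3, Mmp28 being the exception. All 3 numbers gave the same sign for 35 genes, 14 of them higher and 21 lower in LPS. Of all genes tested, 65.6% had the same sign in the 3 numbers, 31% higher and 34.6% lower. Within each group, the sums of macrophage, mesothelial, mesenchymal, neutrophil and epithelial markers were highest in the libraries numbered 3. Those of neuronal, interstitial, smooth muscle and glial markers were lowest there. The part of these cells in the smaller responses was not tested.

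**Figure D5:**
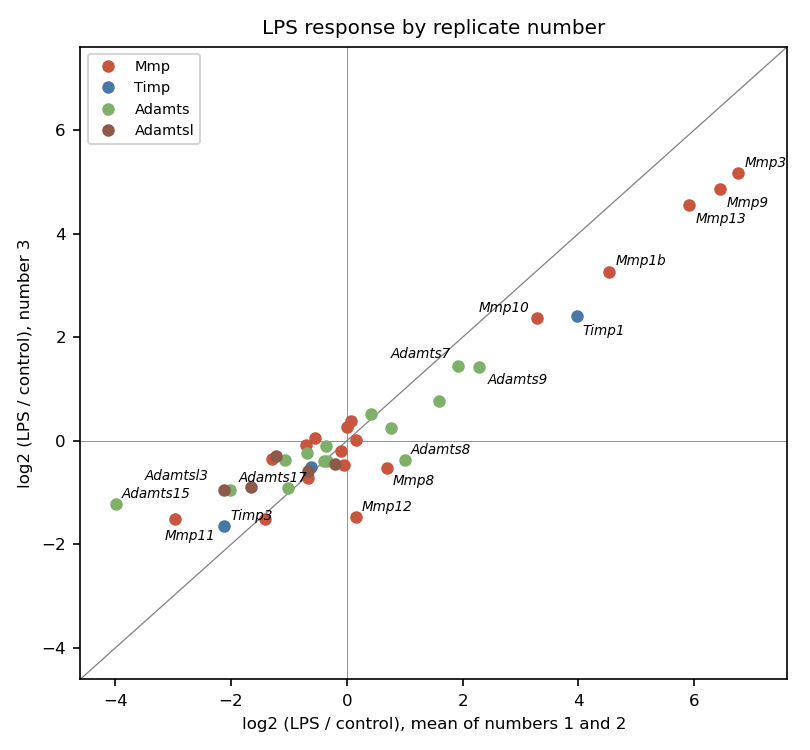
Log2 ratio of LPS to control for the 40 tested genes, with the mean of the pairs numbered 1 and 2 on the horizontal axis and the pair numbered 3 on the vertical axis, coloured by family. The grey diagonal marks equal ratios. The points of Mmp3, Mmp9, Mmp13 and Timp1 lie below it on the right, and Adamts15 and Mmp11 lie above it on the left.

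Genes that activate, dock, inhibit or share work with these proteases were taken from 4 further lists, and 53 of their 57 genes were tested, of which 12 rose and 5 fell in edgeR (9.09% and 6.71% of all genes did so). Scaling by library size alone gave 9 higher and 10 lower, and DESeq2 gave 17 and 12. For these fits the shares of all genes called are not given here. In the list of activation and docking genes, all 11 were tested, 5 rose and 1 fell. Lcn2, whose product binds Mmp9, rose from 2.75, 2.21 and 0.62 CPM to 1645, 1643 and 264 CPM (log2 fold change 9.31, adjusted p = 0.0055). Among the plasminogen activators, which start a cascade that activates metalloproteinases, Plat (tissue type) rose from 190.0, 189 and 171 CPM to 286, 287 and 275 CPM (adjusted p = 0.00641) and Plau (urokinase) fell from 89.7, 124 and 216 CPM to 35, 39.3 and 54.2 CPM (adjusted p = 0.0291). Furin, which removes the prodomain of several of these proteases, rose slightly, with a log2 fold change of 0.46 (adjusted p = 0.0458). Cd44, a docking receptor for Mmp9, and Hpn, a membrane serine protease, had log2 fold changes of 0.86 and 2.15 (adjusted p = 0.0327 and 0.0245).

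Of 13 other inhibitors, all tested, 4 rose and 0 fell in the edgeR test, where 1 had an unadjusted p under 0.05 with a negative sign and DESeq2 called 1 lower. Among those that rose were Tfpi2, from 6.44, 5.8 and 7.19 to 67.7, 70.2 and 41 CPM, Serpinb2, from 0.127, 0.0885 and 0.951 to 47.4, 54.1 and 77.2 CPM, and Serpine2, from 558, 458 and 535 to 842, 749.8 and 707 CPM (adjusted p = 0.00141, 0.00356 and 0.0287). Serpinb2 inhibits the plasminogen activators. Reck, a membrane inhibitor of metalloproteinases, was at 62, 61.3 and 41.1 CPM in control and 38.8, 34.3 and 31.4 CPM in LPS, with an adjusted p of 0.0649 and of 0.0163 with the block. Of 11 tested ADAM proteases, Adam17, which sheds TNF, rose from 114, 127 and 155 CPM to 251, 262 and 316 CPM (adjusted p = 0.0104), and Adam11 and Adam22, which lack protease activity, fell (log2 fold change -2.12 and -1.20, adjusted p = 0.0279 and 0.0425).

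Of 21 substrates listed, 18 were tested, 2 rose and 2 fell, which is near the 9.09% and 6.71% of all genes that did so. Dcn (decorin) rose from 1246, 1221 and 1143 CPM to 2345, 2499 and 1888 CPM (adjusted p = 0.0118), and Lama4, a laminin chain, had a log2 fold change of 1.44 (adjusted p = 0.037). The fibrillins Fbn1 and Fbn2 fell, with log2 fold changes of -0.58 and -2.02 (adjusted p = 0.0414 and 0.01). Vcan, the versican cut by several ADAMTS proteases, was at 295, 293 and 258 CPM in control and 509.9, 446 and 336 CPM in LPS, with an adjusted p of 0.059 and of 0.016 with the block. The median log2 fold change of the tested substrates was -0.27. Acan, Bcan and Comp, like Adam28 of the ADAM list, did not have enough counts to be tested. Over the 4 lists, leaving out 1 library gave 4 genes higher without control replicate 2, 5 without either of LPS replicates 1 and 2 or without control replicate 1, 8 without control replicate 3 and 15 without LPS replicate 3. On the lower side it gave 7 without control replicate 3, 6 without LPS replicate 3, 2 without control replicate 1, 1 without control replicate 2 or LPS replicate 1, and 0 without LPS replicate 2, where 11 genes had an unadjusted p under 0.05 with a negative sign in edgeR. DESeq2 called 12 lower with all 6 libraries. The block gave 18 higher and 12 lower, where the share of all genes also rose, to 15.4% and 14.9%. The shares of all genes in the fits without 1 library are those given above.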

How the data were processed

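Poly(A) RNA libraries from 3 control and 3 LPS-treated EGC samples were made with a stranded TruSeq kit and sequenced. Unnormalized counts, as whole numbers for each gene, were deposited. Per the submitters' processing notes, the authors used cutadapt 1.15, Bowtie2 2.3.3.1, STAR 2.5.2b, SAMtools 1.5 and featureCounts 1.5.3 with mouse build GRCm38. The strand setting of the counting and its handling of reads with several alignments were not given in the sources used here, which leaves genes with overlapping exons or shared sequence uncertain. A table of the whole series held the same counts and was not used.

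Genes with low counts were removed with filterByExpr of edgeR 4.0.16 in R 4.3.3 (minimum count 10, minimum total 15), which left 15226 genes. LPS and control were compared with the two-sided quasi-likelihood F-test on TMM-corrected counts (group alone in the model). P-values were adjusted by the Benjamini-Hochberg method over all of these genes, and adjusted values under 0.05 were calls. CPM were computed from the counts and the corrected library sizes. The SE is the absolute log2 fold change divided by the square root of F. Total counts were between 18775316 and 23664312 per library, and the limit of 3 counts covers counting error only, since PCR copies cannot be recognized. Coordinates and exon lengths came from GENCODE M21, and shared sequence was measured as 31-base words of the transcripts. The fitting script was tested on simulated data.

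Alternatives were other scaling factors and filters, DESeq2 1.42.0, limma-voom (limma 3.58.1), the replicate block, and each library left out. Deviations from the group means of same-numbered control and LPS libraries correlated across genes at r = 0.513, 0.334 and 0.613 for numbers 1, 2 and 3, so the numbers were taken to pair the libraries, from the data and not from the labels. Control 1 with LPS 2 and control 2 with LPS 1 gave r = 0.419 and 0.323, so numbers 1 and 2 were not told apart, whereas pairs of number 3 with another number gave r from -0.564 to -0.396. Genes entered by symbol alone, but the choice of this gene family, the other gene lists and the tests was made with earlier results of these data known. Genes given in every library were those called with or without the block, the Timp genes, Mmp3, Mmp9 and the 5 with the highest level per kb in each group. Other members were given by ranges, counts or examples for their role. Some genes of the other lists are counted but not reported here by name.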

Additional observations from a re-analysis of the deposited data

How the results depend on the processing

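The result that 9 of 40 genes rose kept its count within 8 to 10 under relative log expression, upper-quartile or library-size scaling, without a filter, with at least 10 counts in every library, with DESeq2 and with limma-voom, and the 7 that fell became 7 to 10. The shares of all genes called in these fits are not given here, so these counts cannot be set against them. The replicate block gave 11 higher and 15 lower, with the 9 and the 7 among them, and the libraries numbered 1 and 2 only, chosen after the data were seen, 13 and 19. Leaving out 1 library gave between 4 and 12 higher and between 1 and 9 lower. Mmp1b and Mmp17 were not called by limma-voom (adjusted p = 0.0646 and 0.0512), and Mmp1b was not tested with at least 10 counts in every library. Adamts6 was not called with upper-quartile factors (0.051), library size alone (0.0726) or no filter (0.0621). Calls were also gained: Mmp11 was called lower with upper-quartile factors (0.0374), library size alone (0.0333), no filter (0.047), DESeq2 (0.000585) and limma-voom (0.0323), Adamts15 with DESeq2 (0.0123) and limma-voom (0.0296), Adamts17 with DESeq2 (0.019) and Adamts2 with library size alone (0.0435), and Adamts9 was called higher with DESeq2 (0.00269). Signs reversed only for genes that were not called with all 6 libraries: the log2 fold change became -0.036 for Mmp2 with library size alone, and for Mmp14 -0.0013 with upper-quartile factors, -0.052 with library size alone and -0.041 without LPS replicate 3. That of Mmp8 became 0.27 with limma-voom, 0.20 with the block, 0.71 with numbers 1 and 2 only, 1.08 without control replicate 3, 0.082 without LPS replicate 1 and 0.16 without LPS replicate 2. Mmp8 was -0.42 at the low end of these fits, without LPS replicate 3. Mmp16 became 0.17, 0.19 and 0.36 without control replicate 1, control replicate 2 and LPS replicate 3, Mmp12 0.10 without LPS replicate 3 and 0.18 with numbers 1 and 2 only, and Mmp19 -0.29 without LPS replicate 3. The other ends of the leave-one-out ranges were -0.48 for Mmp16, -0.61 for Mmp12 and 0.60 for Mmp19. The cause of these changes was not tested. Genes near 3 counts, such as Timp4 and Mmp7, did not pass the filter with all 6 libraries and were not among the genes called without it. The strand setting of the counting, not given in the sources used here, limits the genes named above with overlapping exons.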
